A study of Mus musculus with 15 samples.

Results

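The promoters of 33 mouse imprinted genes, drawn from 18 imprinted domains, were examined for H3K4me3 in brown adipocyte (mBA) cells. H3K4me3 is trimethylation of histone H3 at lysine 4, a mark of active and poised promoters, and it was mapped by ChIP–seq. A gene was taken to have a promoter peak when any base of a peak lay within 2000 bp of any of its annotated transcript starts. By symbol, 32 of the 33 genes were found among the 78289 genes of the GENCODE M39 annotation, 25 of them protein-coding and 7 long non-coding RNAs (lncRNAs). The symbol Zrsr1 was not found there. It was placed through its RefSeq promoter sequence and is described apart from the counts.

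Each of the 3 conditions had 4 ChIP samples and 1 input sample. WT cells were wild type and untreated. WT + 2HG cells were wild type cells given a cell-permeable form of 2-hydroxyglutarate (octyl d-2HG in DMSO, renewed daily), and CLPP-KO cells were untreated cells lacking CLPP, the proteolytic subunit of the mitochondrial ClpXP protease. All were cultured in high-glucose DMEM with no pyruvate, and uridine was added for the CLPP-KO cells alone, so that its part cannot be told apart from that of the genotype. The study's methods describe mBA cells as preadipocytes from brown fat of newborn mice, immortalized with SV40 large T antigen and then differentiated, whereas the sample labels call them primary. Peak calling combined the 4 replicates of each condition into 1 list. No spread between replicates can be given, no test between conditions was made, and every comparison below is a description of the 3 lists.

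Genomic imprinting restricts a gene's expression to the chromosome inherited from the mother or from the father. It is set by regions that are methylated on their DNA in the egg or the sperm only, and H3K4me3 and DNA methylation largely exclude each other, so that an imprinted promoter usually carries H3K4me3 on its unmethylated, expressed allele. Many imprinted genes act in fetal growth, in metabolism and in the formation of fat. KDM5 demethylases, which remove H3K4me3, and TET enzymes, which oxidize methylated DNA, both belong to the dioxygenases that 2-hydroxyglutarate can inhibit. The peak lists hold no allele information, so the parental allele behind a peak cannot be told apart here.

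Promoter sequences of 6 of the genes, 1 or 2 for each kind of H3K4me3 pattern, are given first. They are RefSeq promoters (250 bases before a start to 50 after), each found again by an exact and single match in the GRCm39 genome, whose build the peak lists share. Capitals mark TGCCGC on either strand, the hexamer that the imprint-maintaining zinc finger protein ZFP57 binds when it is methylated. Mest (chr6:30737799-30738098, plus strand) and Grb10 (chr11:11987371-11987670, minus strand) had a peak in all 3 lists. Nnat (chr2:157401748-157402047, plus strand) had a peak in WT + 2HG and CLPP-KO, and Zrsr1 (chr11:22921755-22922054, plus strand) in CLPP-KO only. Meg3 (chr12:109506629-109506928, plus strand) had none in any list. The upstream start of Zdbf2 (chr1:63239267-63239566, plus strand) is not among the annotated starts counted here and was given no pattern.
Mest: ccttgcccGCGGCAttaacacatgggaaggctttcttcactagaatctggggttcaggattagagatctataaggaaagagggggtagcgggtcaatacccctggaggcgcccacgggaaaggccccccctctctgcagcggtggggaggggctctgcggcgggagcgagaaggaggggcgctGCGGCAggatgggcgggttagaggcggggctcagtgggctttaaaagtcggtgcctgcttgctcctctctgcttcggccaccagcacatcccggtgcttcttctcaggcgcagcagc
Grb10: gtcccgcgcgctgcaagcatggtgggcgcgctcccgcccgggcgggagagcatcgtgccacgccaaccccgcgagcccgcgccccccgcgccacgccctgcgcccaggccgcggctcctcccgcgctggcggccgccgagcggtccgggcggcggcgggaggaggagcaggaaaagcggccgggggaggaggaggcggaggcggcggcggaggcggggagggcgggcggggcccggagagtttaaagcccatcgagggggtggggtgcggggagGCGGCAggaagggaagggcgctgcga
Nnat: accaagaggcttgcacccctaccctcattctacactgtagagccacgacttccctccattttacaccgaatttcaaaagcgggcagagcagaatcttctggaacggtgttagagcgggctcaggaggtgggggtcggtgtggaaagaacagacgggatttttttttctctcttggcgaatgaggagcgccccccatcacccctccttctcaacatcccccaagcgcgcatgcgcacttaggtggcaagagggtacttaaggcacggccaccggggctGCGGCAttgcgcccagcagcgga
Zrsr1: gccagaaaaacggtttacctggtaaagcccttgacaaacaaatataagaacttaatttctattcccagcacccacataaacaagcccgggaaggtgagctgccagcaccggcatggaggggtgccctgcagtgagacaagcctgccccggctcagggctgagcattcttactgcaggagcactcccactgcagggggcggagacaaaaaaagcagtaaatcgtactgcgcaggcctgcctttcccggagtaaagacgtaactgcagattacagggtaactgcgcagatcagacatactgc
Meg3: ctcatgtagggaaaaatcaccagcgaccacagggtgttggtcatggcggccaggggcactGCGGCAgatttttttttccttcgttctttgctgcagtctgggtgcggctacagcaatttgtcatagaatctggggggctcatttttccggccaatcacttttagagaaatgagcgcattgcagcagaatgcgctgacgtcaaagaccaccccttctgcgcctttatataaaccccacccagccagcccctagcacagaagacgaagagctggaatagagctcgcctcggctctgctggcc
Zdbf2 upstream: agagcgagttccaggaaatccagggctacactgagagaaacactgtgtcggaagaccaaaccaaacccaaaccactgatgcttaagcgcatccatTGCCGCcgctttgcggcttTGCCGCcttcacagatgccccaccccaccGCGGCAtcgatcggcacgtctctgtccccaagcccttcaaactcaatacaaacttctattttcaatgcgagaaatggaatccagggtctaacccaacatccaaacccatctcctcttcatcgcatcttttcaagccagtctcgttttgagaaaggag

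The hexamer occurred 2 times in the Mest sequence, 3 times in the upstream Zdbf2 sequence, once each in those of Grb10, Nnat and Meg3, and not in that of Zrsr1. RefSeq promoters were at hand for 26 of the 33 genes, and 1 promoter per gene was counted, the one nearest to the start of the annotation's canonical transcript. The hexamer was present in 8 of these 26 (30.8%), against 3813 of all 32851 promoters in the table (11.6%). The 26 promoters held a median of 14 CpG dinucleotides, from 0 in Rian to 45 in Grb10, and the whole table a median of 7. Among the 16 promoters with a peak within 2000 bp in all 3 lists, 4 held the hexamer and the median CpG count was 15.5. Of the 7 with no peak in any list, 3 held it (Meg3, Zim1 and Mcts2), with a median CpG count of 10.0. A match of 6 letters is a description of the sequence and does not show binding.

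H3K4me3 was called at the promoters of 20 of the 32 annotated genes in WT. In WT + 2HG it was called at 23 and in CLPP-KO at 22. Over all annotated genes the share with a promoter peak was 22.2% in WT, 24.8% (WT + 2HG) and 25.7% (CLPP-KO). Over protein-coding genes, which make up most of the imprinted set, it was 51.3%, 56.4% and 58.2%, and the 25 protein-coding imprinted genes had a peak in 18, 20 and 20 cases. All 20 genes marked in WT were also marked in both other lists: Igf2, Kcnq1ot1, Cdkn1c, Phlda2, Igf2r, Airn, Dlk1, Peg3, Usp29, Peg10, Sgce, Mest, Plagl1, Snrpn, Ndn, Grb10, Gnas, Impact, Zdbf2 and Inpp5f. A peak in all 3 lists was found for 21.9% of all genes and 50.6% of protein-coding genes. None of the imprinted genes had a peak in WT and none in CLPP-KO, or in WT and none in WT + 2HG, and these losses were also rare among all genes (0.198% and 0.239%).

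Of the 17 domains with an annotated member, 14 had at least 1 marked member in WT and 15 in each of the other lists. The domains of Peg13 and Mcts2 had none in any list, and that of Nnat had none in WT. By the allele they are known to be expressed from, 15 of 20 paternally expressed genes and 4 of 11 maternally expressed genes were marked in WT. These counts were 16 and 6 in WT + 2HG and 16 and 5 in CLPP-KO. Gnas, whose promoters differ in their imprint, is counted in neither group, and of the 7 maternally expressed genes without a WT peak 3 (Meg3, Rian and Mirg) lie in a single domain. Those genes and H19, also without a WT peak, are lncRNA genes. The paternally expressed lncRNA genes are Kcnq1ot1 and Airn, both marked, and Peg13, unmarked. Peg3 with Usp29 and Peg10 with Sgce count as separate paternally expressed genes although each pair shares its peaks. The part of gene type and shared peaks in these counts was not tested.

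**Figure D1:**
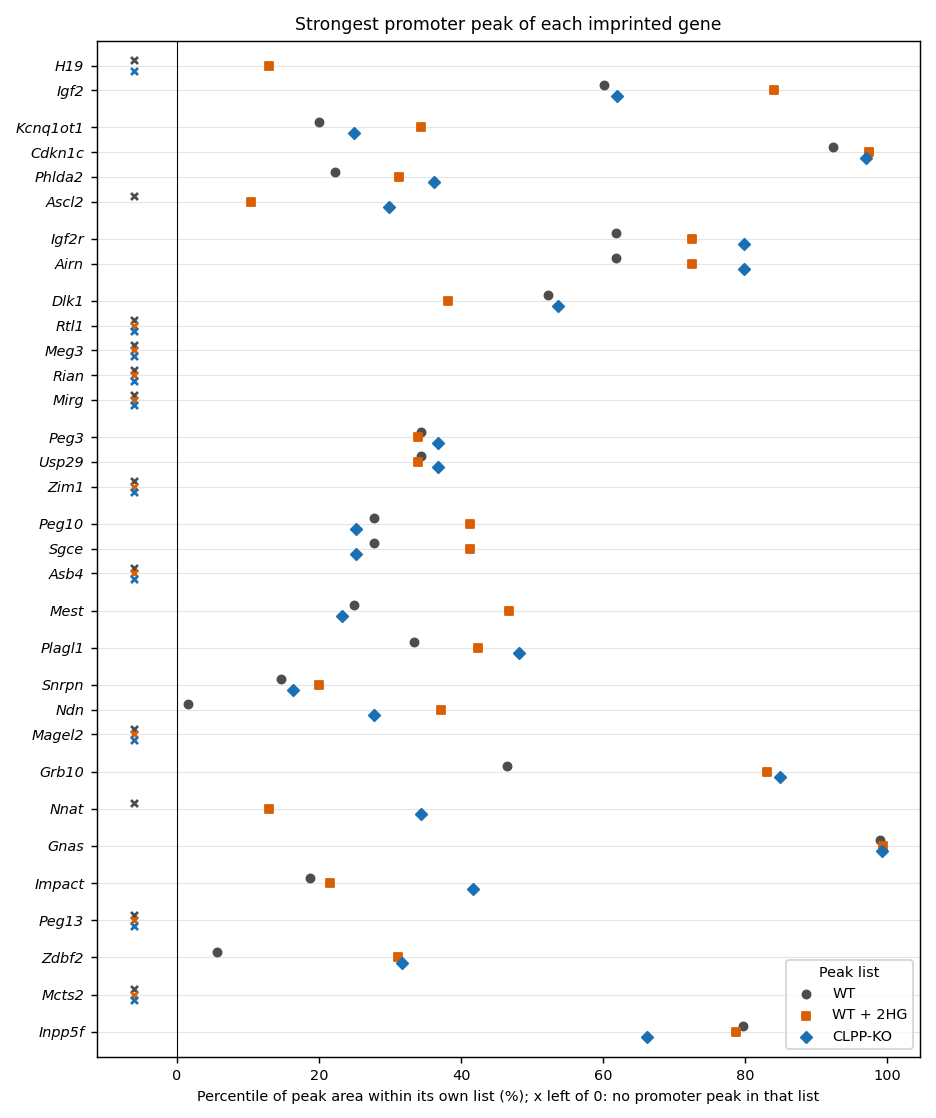
Percentile of the strongest promoter peak's area within its own list (x axis, percent) for each annotated imprinted gene (y axis, grouped by domain), with circles for WT, squares for WT + 2HG and diamonds for CLPP-KO. Crosses left of 0 stand for no promoter peak in that list. Gnas and Cdkn1c lie above 92 in every list, 9 genes have crosses only, and H19, Ascl2 and Nnat lack a peak in WT. Airn is plotted at the peak it shares with Igf2r, and Peg3 with Usp29 and Peg10 with Sgce at shared peaks.

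Peak strength is given below as a percentile of the area under the curve, that is, the percent of peaks in the same list with an area at or below that of the peak in question. Areas are not scaled between the lists, so they were compared only in this ranked form. The summit's −log10 p, taken from the lists, was the peak caller's own, combined over replicates. Most imprinted promoters were weak among the marked genes. The median percentile of a gene's strongest peak was 33.8 over the 20 imprinted genes marked in WT, against 59.7 over all 17412 genes marked in WT. It was 38.1 against 60.3 in WT + 2HG and 36.7 against 61.7 in CLPP-KO. The strongest peak lay below the 50th percentile for 13 of 20 imprinted genes in WT, 16 of 23 in WT + 2HG and 14 of 22 in CLPP-KO, and for 39.4%, 38.7% and 36.9% of all marked genes. The summed width of a gene's promoter peaks differed less from that of other genes, with a median of 962 bp against 990.0 bp in WT, 1183 against 1078 bp in WT + 2HG and 998 against 1074 bp in CLPP-KO.

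At the Igf2–H19 domain the promoter of Igf2, a paternally expressed fetal growth factor, was marked in every list, and the maternally expressed lncRNA H19 only in WT + 2HG. The main Igf2 peak was 1648 bp wide at percentile 60.1 in WT (chr7:142211592-142213239), 2119 bp at 84.1 in WT + 2HG (chr7:142211778-142213896) and 1864 bp at 61.9 in CLPP-KO (chr7:142211861-142213724). WT + 2HG thus stood above the other lists, which lay close together at full length. With each list limited to its largest areas, to the length of the WT list, the peak stood at 81.9 in WT + 2HG. In CLPP-KO it then stood at 53.3, below WT. A peak farther upstream was listed in WT + 2HG (477 bp, percentile 12.5) and CLPP-KO (583 bp, percentile 15.2) and overlapped no WT peak. A weak peak just past the start of the gene's canonical transcript was listed in WT (472 bp, percentile 9.4) and WT + 2HG (426 bp, percentile 12.1). H19 had a pair of weak peaks in WT + 2HG, at chr7:142130188-142130740 (553 bp, percentile 13.0, summit −log10 p 4.67) and chr7:142131130-142131791 (662 bp, percentile 9.8, summit −log10 p 4.12). Both lay inside the gene, near internal transcript starts, with summits 3390 and 2420 bp downstream of the canonical start and nearest to the starts of other genes, Gm56420 and Gm56421. In WT and CLPP-KO the nearest peak to any H19 start was 43.0 kb away.

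In the Kcnq1 domain, which the paternally expressed antisense lncRNA Kcnq1ot1 silences in cis, Cdkn1c carried by far the strongest mark. Cdkn1c, a maternally expressed inhibitor of cyclin-dependent kinases, had a peak of 2100 bp at percentile 92.4 in WT (chr7:143012569-143014668), 2227 bp at 97.5 in WT + 2HG (chr7:143012544-143014770) and 2273 bp at 97.0 in CLPP-KO (chr7:143012544-143014816). CLPP-KO listed a further peak of 221 bp upstream of it, after a gap of 258 bp. Kcnq1ot1 stood at percentile 20.0 in WT (896 bp), 34.3 in WT + 2HG (1226 bp) and 25 in CLPP-KO (646 bp), in each list downstream of its start. Phlda2, a maternally expressed regulator of placental growth, stood at 22.2 (473 bp), 31.3 (1183 bp) and 36.2 (801 bp), respectively. Ascl2, a maternally expressed basic helix-loop-helix factor of the trophoblast, had no peak in WT. Its peaks were 482 bp wide at percentile 10.4 in WT + 2HG (chr7:142521957-142522438), and 732 bp at 29.8 (chr7:142521768-142522499) and 361 bp at 12.6 (chr7:142521164-142521524) in CLPP-KO. The peak common to both had its summit 760.0 bp (WT + 2HG) or 809 bp (CLPP-KO) downstream of the RefSeq start. The promoter of Kcnq1 itself, the potassium channel gene in which Kcnq1ot1 lies, also lacked a WT peak and stood at 12.0 in WT + 2HG and 19.3 in CLPP-KO.

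At the Igf2r–Airn domain the maternally expressed receptor gene Igf2r, whose product clears IGF2, and the paternally expressed lncRNA Airn, which silences Igf2r, were both marked at their own promoters. Igf2r stood at percentile 61.8 in WT (chr17:12987771-12988923, 1153 bp), 72.5 in WT + 2HG (1124 bp) and 79.9 in CLPP-KO (1241 bp). The Airn promoter, inside Igf2r, stood at 54.6 in WT (chr17:12960369-12961424, 1056 bp), 66.5 in WT + 2HG (1099 bp) and 69.9 in CLPP-KO (1314 bp). The order of the lists was the same for both promoters. As further annotated Airn starts lie close to the Igf2r promoter, the Igf2r peak also counts for Airn.

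In the Dlk1–Dio3 domain Dlk1 was marked and the other imprinted genes examined there were not. Dlk1, a paternally expressed inhibitor of adipocyte differentiation also known as preadipocyte factor 1, had a peak of 1028 bp at percentile 52.3 in WT (chr12:109418991-109420018), 1038 bp at 38.1 in WT + 2HG (chr12:109418980-109420017) and 970.0 bp at 53.6 in CLPP-KO (chr12:109419015-109419984). The WT + 2HG value was the lowest, a difference of −14.2 percentile points from WT that 5.17% of all genes marked in both lists matched or passed in that direction. The maternally expressed lncRNA genes Meg3, Rian and Mirg, which carry small nucleolar RNAs and microRNAs, and the paternally expressed retrotransposon-derived gene Rtl1 had no promoter peak in any list. For all 4 the nearest peak was that of Dlk1, 86.9 kb from the nearest Meg3 start in WT, 146.7 kb for Rtl1, 150.2 kb for Rian and 276.2 kb for Mirg. The Meg3 promoter printed above held 13 CpG dinucleotides, near the median of the imprinted promoters. Dio3, a further gene at the other end of the domain whose product inactivates thyroid hormone, was marked in all 3 lists, but not over the same bases. WT had a peak at percentile 21.5, and WT + 2HG one at 22.5 that did not overlap it. CLPP-KO had a peak at 11.1 that overlapped the WT peak and another at 19.4 that overlapped the WT + 2HG peak.

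Peg3, Usp29, Peg10, Sgce, Mest and Plagl1, all paternally expressed, had a promoter peak in every list, with the strongest peak at percentiles between 23.2 and 48.2. Peg3, a zinc finger gene, and Usp29, a deubiquitinase gene, start back to back and share 1 peak. In the full lists this peak stood at nearly the same percentile: 34.3 in WT (569 bp), 33.9 in WT + 2HG (694 bp) and 36.7 in CLPP-KO (600.0 bp). With each list limited to its largest areas, to the length of the WT list, it stood lower than in WT. It was then at 24.6 in WT + 2HG and at 22.4 in CLPP-KO. Peg10, a retrotransposon-derived gene needed in the placenta, and Sgce, the gene of epsilon-sarcoglycan, also start back to back. WT listed peaks of 543 bp (percentile 27.8) and 553 bp (13.6) on the Sgce and Peg10 sides, with 206 bp between them, WT + 2HG a single peak of 1242 bp (41.3), and CLPP-KO 467 bp (12.3) and 472 bp (25.2) with 209 bp between them. Mest, a gene of the alpha/beta hydrolase fold that is induced in expanding fat tissue, stood at 25 in WT (466 bp, chr6:30738104-30738569), 46.8 in WT + 2HG (673 bp, chr6:30737985-30738657) and 23.2 in CLPP-KO (768 bp, chr6:30738055-30738822). Plagl1, a zinc finger gene that restrains the cell cycle, stood at 33.4 (669 bp), 42.4 (909 bp) and 48.2 (1026 bp). Mest was therefore highest in WT + 2HG and Plagl1 in CLPP-KO. The maternally expressed genes Zim1, of the Peg3 domain, and Asb4, of the Peg10–Sgce domain, had no promoter peak in any list. In WT the nearest peak was 33.3 kb from a Zim1 start and 85.0 kb from an Asb4 start.

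**Figure D2:**
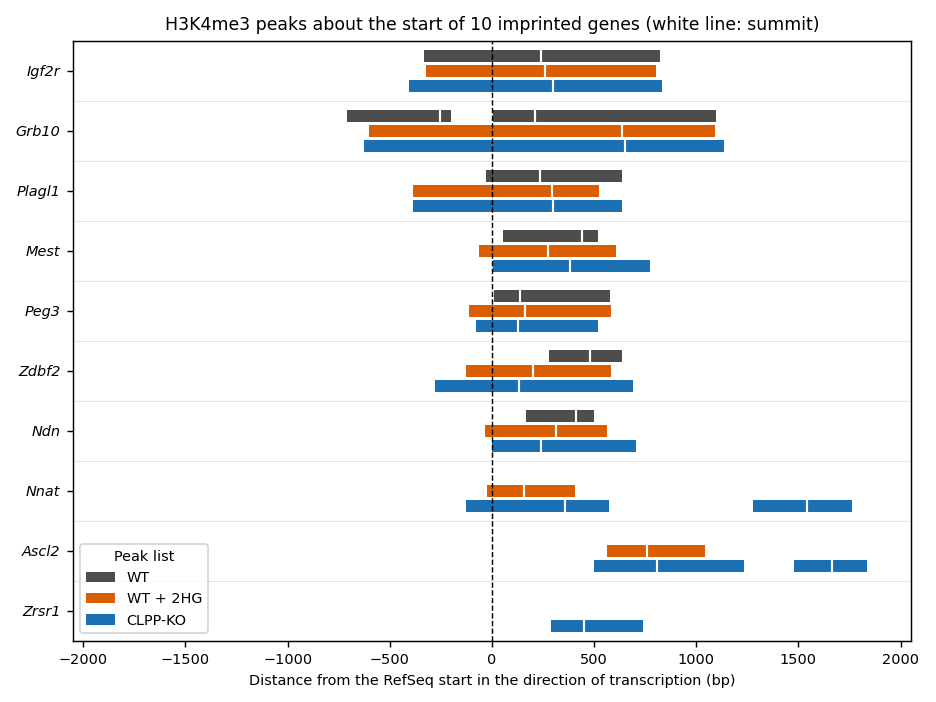
Extent of each peak (bars) and its summit (white line) by distance in bp from the RefSeq start in the direction of transcription, for 10 imprinted genes in the WT, WT + 2HG and CLPP-KO lists. WT lists 2 peaks at Grb10 where the other lists have 1, the WT peaks of Zdbf2 and Ndn are shorter and lie downstream of the start, and Nnat, Ascl2 and Zrsr1 have no WT peak.

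In the Snrpn domain, the mouse counterpart of the Prader–Willi region, Snrpn and Ndn were marked and Magel2 was not. Snrpn, which encodes the splicing protein SmN, stood low at 14.6 in WT (652 bp), 20.0 in WT + 2HG (475 bp) and 16.3 in CLPP-KO (486 bp). Ndn, which encodes the MAGE protein necdin, had a peak of 334 bp at percentile 1.5 in WT (chr7:61998191-61998524, summit −log10 p 3.70), 595 bp at 37.2 in WT + 2HG (chr7:61997992-61998586, 10.80) and 704 bp at 27.8 in CLPP-KO (chr7:61998026-61998729, 8.30). The WT peak was thus among the weakest of its list. All 3 Ndn peaks began within 200 bp of the RefSeq start, at 166, −33 and 1 bp from it, but the annotation places its starts farther upstream, so that the peaks reach the edge of the 2000-bp window and a window of 1000 bp misses them. Magel2, a neighbouring MAGE gene, had its nearest peak, that of Ndn, 28.2 kb away in WT. Mkrn3 and Peg12, further paternally expressed genes of the domain, were marked in all lists, at 22.6, 40.6 and 43.6 for Mkrn3 and 22.4, 57.3 and 53.3 for Peg12 in WT, WT + 2HG and CLPP-KO.

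Grb10, an adaptor protein gene that restrains insulin signalling and is maternally expressed outside neurons, showed the largest difference from WT among the imprinted genes in both comparisons when each gene is read at its strongest peak, a rank that rests on a split WT peak. WT listed 2 peaks, of 1093 bp at percentile 46.5 (chr11:11986322-11987414) and 509 bp at 27.6 (chr11:11987623-11988131), with 208 bp between them. WT + 2HG had 1 peak of 1698 bp at 83.1 (chr11:11986327-11988024) and CLPP-KO 1 of 1762 bp at 84.9 (chr11:11986284-11988045). Both of these peaks spanned the gap. The difference of 36.6 percentile points in WT + 2HG was matched or passed by 1.85% of all genes marked in both lists, and that of 38.3 in CLPP-KO by 2.79%. Part of this difference is the joining of peaks: the 2 WT areas together would rank at percentile 62.5 of the WT list. Against that value WT + 2HG stood 20.6 points higher and CLPP-KO 22.4, less than for Ndn (35.8 and 26.3) and Zdbf2 (25.5 and 26.0). CLPP-KO also listed a peak of 225 bp at an internal start (percentile 3.6).

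Nnat, a paternally expressed proteolipid gene within an intron of Blcap, had no peak in WT. It had a peak of 429 bp at percentile 13.0 in WT + 2HG (chr2:157401975-157402403, summit −log10 p 5.81), and peaks of 702 bp at 34.3 (chr2:157401871-157402572, summit −log10 p 9.37) and 481 bp at 16.3 (chr2:157403278-157403758) in CLPP-KO. The main peaks of both lists covered the RefSeq start. The promoter of the host gene Blcap was marked in every list, at 90.4, 70.5 and 81.9 in WT, WT + 2HG and CLPP-KO. Zrsr1, a paternally expressed splicing-factor retrogene within an intron of Commd1, had a peak in CLPP-KO only, of 453 bp at percentile 11.0 (chr11:22922292-22922744, summit −log10 p 4.00), starting 287 bp past its RefSeq start. The Commd1 promoter stood at 46.2, 45.9 and 40.3 in the 3 lists. The other imprinted genes inside a host, Mcts2 in H13 (also named Hm13) and the lncRNA gene Peg13 in Trappc9, had no peak in any list. Their hosts were marked in all, at 85.8, 82.1 and 73.4 for H13 and 60.5, 54.2 and 68.0 for Trappc9.

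Impact, which encodes an inhibitor of the kinase GCN2 and is paternally expressed, counted as marked in all lists only through a far upstream annotated start. The peak there stood at 18.8 in WT, at 33.2 in CLPP-KO and at 21.5 in WT + 2HG, and its summit was nearest to the start of another gene, Gm58527. Near the canonical start no peak was listed in WT, whereas WT + 2HG had a peak of 984 bp at percentile 12.2 (chr18:13106535-13107518) and CLPP-KO a peak of 1583 bp at 41.7 (chr18:13105840-13107422). Zdbf2, a paternally expressed zinc finger gene, had a peak of 356 bp at 5.7 in WT (chr1:63312708-63313063, summit −log10 p 3.89), 710.0 bp at 31.1 in WT + 2HG (chr1:63312303-63313012, 8.57) and 968 bp at 31.7 in CLPP-KO (chr1:63312150-63313117, 7.45). The WT peak began 280.0 bp past the RefSeq start, and the other peaks covered it. The summit was nearest to a start of another gene, Gm56068, in every list. The upstream promoter of Zdbf2, which held the hexamer 3 times, lies outside the annotated gene and was not counted. Inpp5f, a phosphatase gene of which only an intronic transcript is imprinted, stood at 79.7, 78.7 and 66.2 at its main promoter. At the intronic promoter it stood at 15.8 (608 bp), 15.2 (596 bp) and 10.6 (385 bp).

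By peak area, Gnas carried the strongest mark of the set in every list. Ranked by summit p, its main peak was first in WT (percentile 93.6). In WT + 2HG it ranked below those of Inpp5f and Igf2r (80.3 against 85.6 and 81.8), and in CLPP-KO below that of Igf2r (82.6 against 83.5). The Gnas locus encodes the stimulatory G protein subunit Gs alpha, which couples beta-adrenergic receptors to thermogenesis in brown fat, and has several promoters with different imprints. The Nesp promoter is maternally expressed, those of XL alpha s and exon 1A are paternally expressed, and that of Gs alpha is active on both alleles in most tissues. In WT a single peak of 4333 bp at percentile 99.0 (chr2:174168828-174173160) spanned the exon 1A starts, 2257 and 2238 bp before the Gs alpha start, and that start itself. In WT + 2HG it was 4226 bp at 99.4 (chr2:174168899-174173124). CLPP-KO listed 2 peaks in its place, of 852 bp at 35.3 over the exon 1A starts (chr2:174169081-174169932) and 3074 bp at 99.3 over the Gs alpha start (chr2:174170116-174173189), with 183 bp between them. The Nesp promoter was weakly marked in all lists, at 13.6 in WT (488 bp), 26.0 in WT + 2HG (948 bp) and 24.8 in CLPP-KO (842 bp). Near the XL alpha s start WT had a peak of 341 bp at 2.0, WT + 2HG one of 1221 bp at 41.2 and CLPP-KO one of 1626 bp at 32.2, with a further peak of 635 bp at 9.6 upstream of that start. These peaks did not cover the same bases: the WT peak of 341 bp overlapped none of the others, and the CLPP-KO peak of 1626 bp instead overlapped a WT peak of 515 bp at 13.4 that lay farther downstream, outside the window.

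**Figure D3:**
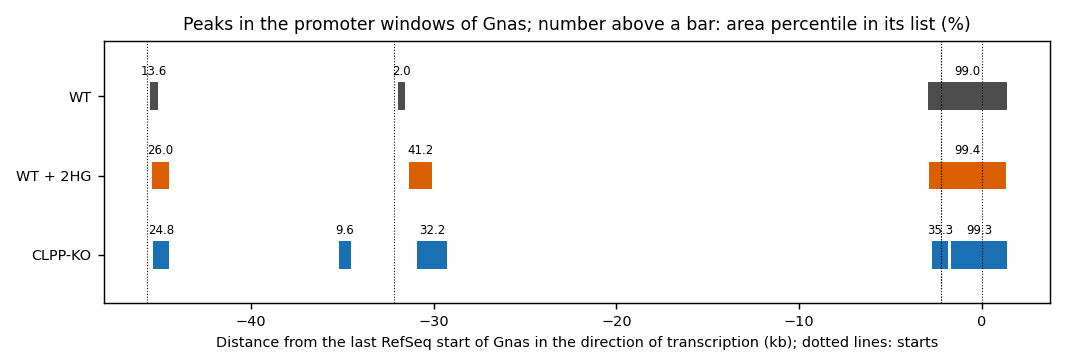
Peaks in the promoter windows of Gnas (bars) in the WT, WT + 2HG and CLPP-KO lists, by distance in kb from the last RefSeq start, that of Gs alpha. Dotted lines mark transcript starts, from left to right those of Nesp, XL alpha s, exon 1A and Gs alpha, and the number above a bar is its area percentile. The peak next to Gs alpha lies between 99.0 and 99.4 in all lists and is preceded by a gap of 183 bp in CLPP-KO.

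Peak presence thus differed between lists for 3 of the 32 annotated genes. Ascl2 and Nnat had a promoter peak in CLPP-KO and none in WT, a pattern found in 3.68% of all genes and 7.25% of protein-coding genes. Ascl2, Nnat and H19 had a peak in WT + 2HG and none in WT, a pattern found in 2.81% of all genes and 5.64% of protein-coding genes. These WT + 2HG calls rested on weak peaks. The H19 call ended with canonical starts only, with each peak given to the nearest gene, and, like that of Ascl2, with a summit p of at most 1e-05, an area of at least 1000 or lists of equal size by summit p. The Ascl2 call also ended in lists of equal size by area, and that of Nnat with an area of at least 1000. The CLPP-KO calls of Ascl2 and Nnat held under all these settings. For the 25 protein-coding imprinted genes the count was 2 in either comparison (8.00%), a share near that of protein-coding genes as a whole. Both comparisons use the same WT list. With Zrsr1 added, 3 genes of 33 had a peak in CLPP-KO and none in WT. Counted by peaks, those without any overlap with a WT peak were 9 of 32 distinct peaks at imprinted promoters (28.1%) for CLPP-KO, where the share over all 14119 promoter peaks was 20.3%. For WT + 2HG they were 7 of 28 (25%), where the share over all 13434 promoter peaks was 16.3%.

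Over the 20 imprinted genes marked in all lists, the percentile of the strongest peak was higher than in WT for 16 in WT + 2HG and for 16 in CLPP-KO. The strongest peak is shared by Igf2r with Airn, Peg3 with Usp29 and Peg10 with Sgce, so these genes do not give separate values. The median difference was 9.97 percentile points in WT + 2HG, against 3.49 over all 17225 genes marked in both lists, and 3.49 in CLPP-KO, against 5.28 over 17257 genes. The share of all genes with a higher percentile was 64.3% and 69.8%, respectively. Percentiles depend on how many weak peaks a list holds, and the WT + 2HG and CLPP-KO lists were longer than that of WT. With each list limited to its 12342 largest areas, the length of the WT list, the median difference was 4.94 over 20 imprinted genes in WT + 2HG and −0.316 over 19 in CLPP-KO, against −0.0770 and −0.438 over all genes. The percentile was then higher than in WT for 13 of the 20 in WT + 2HG (65.0%, against 49.6% of all genes). In CLPP-KO it was higher for 9 of the 19 (47.4%, against 47.6% of all genes). The direction over the imprinted genes in CLPP-KO therefore turned with list length. Unless stated, values given for single genes are those of the full lists and also shift with list length. The difference from WT went from 5.43 to −5.70 for Snrpn in WT + 2HG and from 4.99 to −11.9 for Kcnq1ot1 in CLPP-KO. That of Grb10 stayed the largest in both comparisons, at 34.2 (WT + 2HG) and 34.9 (CLPP-KO). Among genes below the 50th WT percentile, the median difference in WT + 2HG was 13.5 over 13 imprinted genes and 11.2 over 6691 genes. In CLPP-KO it was 4.99 over the 13 imprinted genes and 14.2 over 6721 genes, and 10 of the 13 (76.9%) against 87.4% were higher than in WT. The 13 count the shared value of Peg3 and Usp29 (2.39) and that of Peg10 and Sgce (−2.65) for each gene. The −2.65 sets the WT peak on the Sgce side (27.8) against the CLPP-KO peak on the Peg10 side (25.2). Likewise the value of Impact (22.9) sets the CLPP-KO peak near the canonical start (41.7) against the WT upstream peak (18.8). The next value above 4.99 (Kcnq1ot1) was 14.0 (Phlda2), so the median would be higher with each shared peak counted once. No shortfall against other genes can be read from it.

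**Figure D4:**
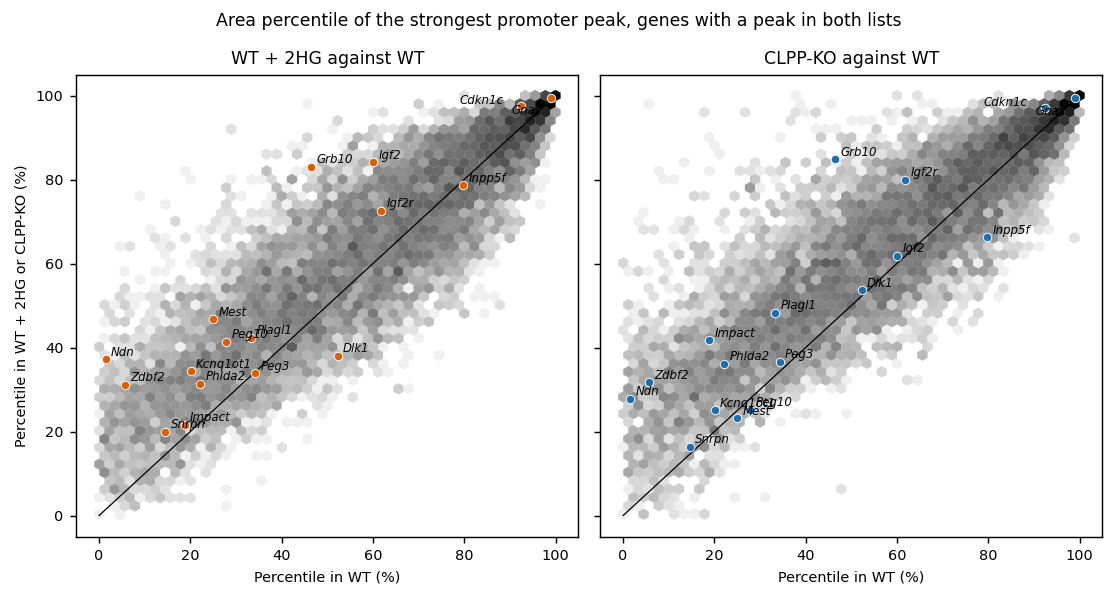
Area percentile of the strongest promoter peak in WT (x axis) against that in WT + 2HG (left) or CLPP-KO (right), in percent. Grey hexagons hold all genes with a peak in both lists (darker for more genes, on a log scale), coloured points are imprinted genes, and the diagonal is equality. Of the imprinted genes, Grb10, plotted at the larger of its split WT peaks, lies farthest above the diagonal in both panels, at 46.5 in WT and 83.1 or 84.9, and Dlk1 (left) and Inpp5f (right) lie farthest below it.

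The summed width of a gene's promoter peaks was also larger than in WT for 18 of 20 imprinted genes in WT + 2HG (median ratio 1.22) and for 14 of 20 in CLPP-KO (median ratio 1.16). Over all genes marked in both lists the median ratio was 1.11 and 1.10, with 73.1% and 72.8% wider. The ratio was largest for Phlda2 in WT + 2HG (2.50) and for Impact (3.02) and Zdbf2 (2.72) in CLPP-KO. The Impact ratio adds the CLPP-KO peak near the canonical start, which has no counterpart in WT, and for the upstream peak alone it was 1.09. In WT + 2HG, Impact counts as wider (1.74) only through such an added peak, and for the upstream peak alone the ratio was 0.535. The ratio of summed widths was smallest for Snrpn in WT + 2HG (0.729) and for Kcnq1ot1 (0.721) in CLPP-KO. For comparison, all WT peaks had a median width of 825.0 bp, with 868.0 bp in CLPP-KO and 885.0 bp in WT + 2HG.

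**Figure D5:**
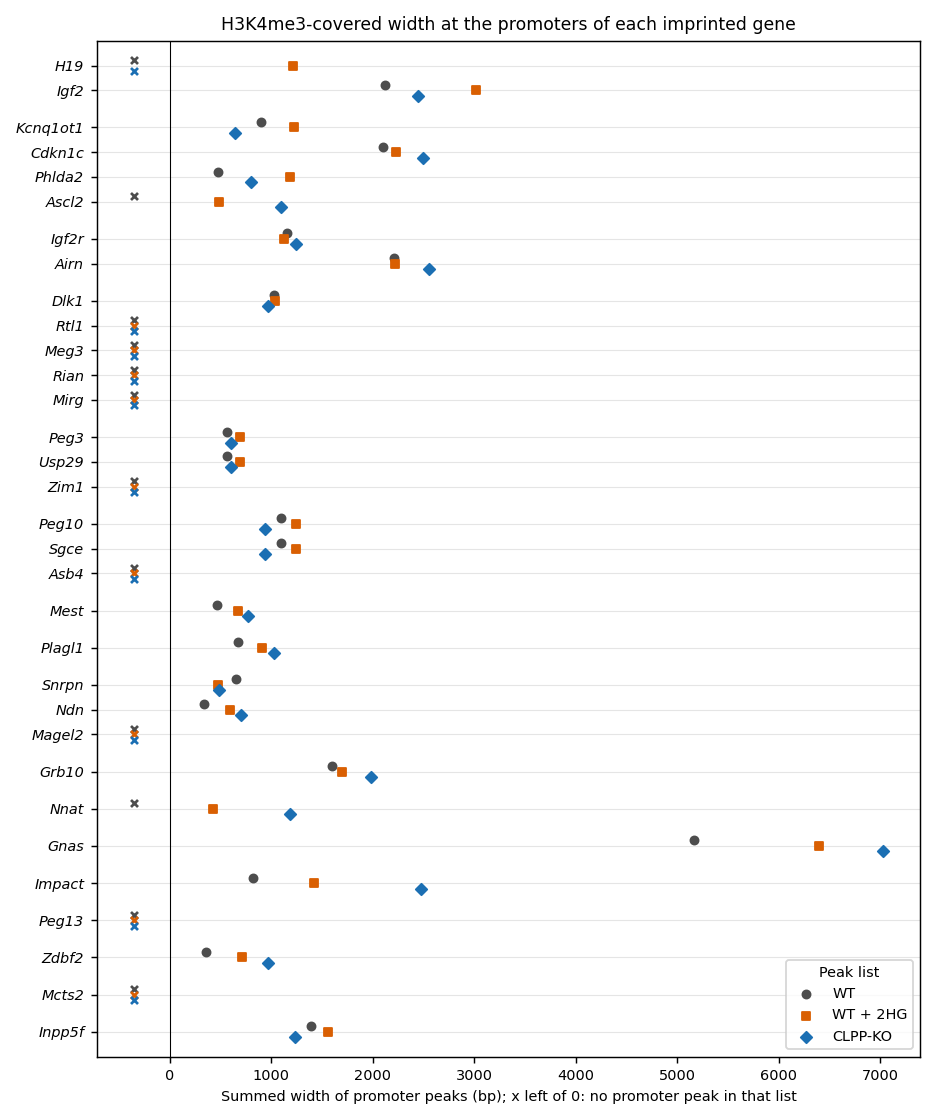
Summed width in bp of all promoter peaks of each annotated imprinted gene in the WT (circles), WT + 2HG (squares) and CLPP-KO (diamonds) lists, with crosses left of 0 for no peak. Gnas, with 5162, 6395 and 7029 bp over its several promoters, exceeds every other gene, and no other gene passes 3022 bp.

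The WT list held 12342 peaks, against 15118 for CLPP-KO and 14059 for WT + 2HG. The lists give no read counts, so the depth behind a peak is unknown from them and an unlisted promoter may carry H3K4me3 below the calling threshold. The Clpp promoter was marked in all lists, CLPP-KO included, at percentiles of 39.9, 45.2 and 43.4, and a histone mark at a promoter does not check a knockout. Of 8 brown adipocyte markers 2 had a promoter peak in WT (Prdm16 and Zic1), 4 in CLPP-KO and 3 in WT + 2HG, and Ucp1, Ppargc1a, Dio2 and Elovl3 had none in any list. For 7 general adipocyte markers the number marked was 2 (WT), 4 (CLPP-KO) and 5 (WT + 2HG). Adipoq and Fabp4 were marked in no list. Macrophage markers (4) were unmarked throughout, and 1 of 4 endothelial markers was marked in every list. Of 4 neuronal markers 2 were marked in WT and in WT + 2HG and 3 in CLPP-KO (Rbfox3 in addition). Of 4 muscle markers 0 were marked in WT and in WT + 2HG and 2 (Myod1 and Pax7) in CLPP-KO. Whether these differences have a part in those at imprinted genes was not tested.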

How the data were processed

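H3K4me3 ChIP–seq peak lists of mBA cells were analysed for 3 conditions, each with 4 ChIP samples and 1 input sample. The authors trimmed reads with fastp (0.23.4), mapped them to GRCm39 with BWA–MEM (BWA 0.7.17) and called peaks with Genrich (0.6.1), which combined the p-values of the 4 replicates by Fisher's method. A deposited peak carries a signal (the area under its curve), a summit −log10 p, a summit position and a score of at most 1000. The smallest area was 200.0 and the field for q-values was −1 throughout. The deposited score was not used further. A list that is called on replicates together holds no replicate error, and closely spaced peaks can be joined in 1 list and split in another.

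Start sites came from GENCODE M39 and promoter sequences from the RefSeq table (GRCm38.p6), which were placed in GRCm39 by exact match on either strand. The 33 imprinted genes, their domains and all marker lists were chosen with earlier results of these data known. All members were named, with host genes, and neighbours were mostly counted. Counts of members are set beside the share of all genes, and no test was made because each condition has 1 list. The code was tested on simulated data against bedtools (2.31.1), with Python 3.11.15, numpy 2.4.6 and matplotlib 3.10.9. Alternatives changed the window, start sites, thresholds, list sizes, overlap and assignment of peaks to genes. Read density, DNA methylation and expression were not analysed here.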

Additional observations from a re-analysis of the deposited data

How the results depend on the processing

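No paired analysis was possible because each list was called on all 4 replicates at once, and no replicate could be left out. Of 113 values under alternative settings, 98 stayed within 1.5 times the reported value, 14 moved farther and 1 reversed. The number of imprinted genes marked in WT, WT + 2HG, CLPP-KO or all lists, and the number of domains, stayed within that range throughout. The counts of genes marked in CLPP-KO or WT + 2HG and not in WT depended on the threshold: with a summit p of at most 1e-05 they were 5 in CLPP-KO (Ascl2, Nnat, Impact, Ndn and Zdbf2) and 5 in WT + 2HG (Nnat, Impact, Ndn, Zdbf2 and Snrpn, without Ascl2 and H19), and with an area of at least 1000 they were 7 and 6. An area of at least 1000 is not an equal threshold, since 9516 WT peaks pass it against 11551 in WT + 2HG and 12317 in CLPP-KO. Nor is the summit p, which 10427 WT peaks pass against 12381 (WT + 2HG) and 12881 (CLPP-KO). The genes that these thresholds added each had a WT peak that no longer passed. The share of all genes gained in this way was not determined, so the larger counts cannot be set against other genes. In lists of equal size by summit p the WT + 2HG count was 1 (Nnat). In such lists, by area or by summit p, 1 gene (Snrpn) was marked in WT and not in CLPP-KO, and when each peak went only to the gene with the nearest start 1 gene (Peg10) was marked in WT and not in WT + 2HG. Peaks overlapping no WT peak numbered 15 in CLPP-KO (46.9%, against 26.7% of all promoter peaks) and 11 in WT + 2HG (39.3% against 23.3%) when at least 50% of both peaks had to overlap. In lists of equal size by area they numbered 3 in CLPP-KO (13.0% against 10.6%) and 5 in WT + 2HG (20.0% against 9.35%). With an area of at least 1000 they numbered 11 in CLPP-KO (47.8% against 23.3%) and 8 in WT + 2HG (40.0% against 18.9%). The median percentile difference was 4.74 in WT + 2HG and 1.70 in CLPP-KO when peaks were ranked by summit p, and 4.94 and −0.316 in lists of equal size by area. The cause of these shifts was not tested beyond the settings themselves. Adding Zrsr1 and using RefSeq starts were chosen after seeing the data, and moved no count by more than 1.5 times.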

Other observations

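Neighbouring genes of the imprinted domains, like genes as a whole, showed few differences between lists. Of all annotated genes, 3.68% had a promoter peak in CLPP-KO and none in WT, and 2.81% in WT + 2HG and none in WT. Of 64 annotated neighbours, 36 had a promoter peak in all 3 lists (against 21.9% of all genes and 50.6% of protein-coding genes) and 26 in none. The exceptions were Lsp1, a lymphocyte-specific cytoskeletal gene of the Igf2–H19 domain, marked in WT + 2HG and CLPP-KO, and Slc22a3, an organic cation transporter gene of the Igf2r domain, marked in CLPP-KO only. Of 17 genes of imprint maintenance, among them those of the DNA methyltransferase DNMT1, the scaffold protein TRIM28 and the zinc finger protein ZFP57, 15 had a promoter peak in all lists. Dnmt3l and Dppa3, which act in germ cells and the early embryo, had none in any list.

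Few peaks lay inside or within 10000 bp of the members of a domain without touching a member's promoter window. CLPP-KO had a peak of 482 bp (percentile 18.7) upstream of Cdkn1c (chr7:143018538-143019019) and one of 141 bp (percentile 4.7) in the Snrpn domain (chr7:59805315-59805455), and neither had a counterpart in the other lists. Upstream of Impact, near Osbpl1a, WT + 2HG had a peak of 305 bp (percentile 7.9) and CLPP-KO one of 360.0 bp (percentile 13.6), with none in WT. At Gnas, peaks of 515 bp in WT (percentile 13.4) and 553 bp in WT + 2HG (percentile 21.7) lay downstream of the XL alpha s start, where the CLPP-KO peak of 1626 bp reached over most of the same stretch.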
